A study of Homo sapiens with 6 samples.

Results

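The 45 genes described here encode proteins of the nucleolus and of ribosome assembly: RNA polymerase I and its initiation factors, small nucleolar ribonucleoproteins, and the factors that process and assemble both ribosomal subunits. They were taken from a list of names that was chosen with earlier results of these data known. The genes were ordered in 6 steps, from transcription of ribosomal DNA (rDNA) to export. All 45 were found by symbol among the 61552 genes of the tables, and all 45 were among the 15063 genes with enough counts to be tested. RNA was sequenced from NCI-H520, an established human line of lung squamous cell carcinoma labelled wild type, after 48 h with phosphate-buffered saline (PBS, 3 libraries) or with cisplatin at 2 µM (3 libraries), a platinum compound that forms DNA crosslinks. The cells of both groups were kept in medium with 15% serum, and the series title concerns SOX2 and resistance to chemotherapy. Whether replicates came from separate cultures is not in the labels, so every p-value measures only the spread between these libraries, which may be technical.

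Libraries held 9121180 to 15589897 expected counts under PBS and 9925328 to 16724285 under cisplatin, and the first principal component, with 58.9% of the variance, separated the groups. The lineage factor SOX2 and the epithelial keratin KRT8 were abundant. SOX2 had 156 ± 23.8 TPM under PBS and 152 ± 9.33 under cisplatin (TPM is the authors' level per transcript length). Of the squamous markers, TP63, DSG3 and PKP1 had at most 3 counts in a library. The squamous keratins KRT5 (47 to 88 counts in a library) and KRT6A (15 to 37) were low but detected. The leukocyte markers PTPRC and CD3E and the stromal COL3A1 had 0. Of 10 markers of other cell types, 8 stayed at 9 counts or fewer in every library; the monocyte marker CD14 was called lower (1.06 and 0.515 CPM on average) and the collagen gene COL1A1 higher (12.7 and 22.3 CPM on average), and their part in the results was not tested. Of the 7 identity genes tested, KRT8 (0.39), KRT18 (0.28) and CDH1 (0.67) were called higher on the log2 scale and 4, SOX2 among them, were not called. Mitochondrial transcripts took 4.15% to 6.05% of counts under PBS and 3.26% to 4.13% under cisplatin, and their part was not tested either. The 45 genes together took 0.781% to 0.816% of the counts in the PBS libraries and 0.63% to 0.644% in the cisplatin libraries, with no overlap between the groups.

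Ribosome production starts in the nucleolus, where RNA polymerase I transcribes tandem rDNA repeats into a long precursor RNA. Small nucleolar ribonucleoproteins guide its methylation and pseudouridylation, a large assembly called the small subunit processome forms on its leading part, and other factors fold and cleave the part that becomes the large subunit. The particles then pass through the nucleoplasm, are exported and are finished in the cytoplasm. In growing tumour cells this pathway is a main consumer of energy, and cisplatin is known to disturb nucleolar transcription.

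Most of these mRNAs were less abundant after cisplatin. Of the 45 genes, 31 fell, 1 rose and 13 were not called, at an adjusted p of 0.05 (edgeR quasi-likelihood fit, Benjamini-Hochberg over all 15063 genes). Among all tested genes 19.3% were called lower, 18.9% higher and 38.2% in either direction. The falls were moderate, from 14.9% to 55.3% with a median of 22.7% over the called genes. On the log2 scale 8 of them reached -0.5 or lower, a cut whose share over all tested genes was not computed. These 8 were the helper of rRNA transcription NCL, the helicase DDX21, the nucleolar chaperone NOLC1, the processome factors UTP20 and WDR43, the rRNA methyltransferase NOP2, the AAA ATPase MDN1 and the export factor RRP12. The median log2 fold change (cisplatin minus PBS) of the 45 was -0.30, beside 0.00 over all tested genes. Because the list was chosen with earlier results known, the values over all genes are given as a description only. In 32 of the 45, every cisplatin library lay below every PBS library in CPM (counts scaled to library size with TMM factors), an arrangement found in 24.5% of all tested genes, and in 3 every cisplatin library lay above, as in 25.2% of all. In bulk RNA, fewer cells with a transcript and less transcript per cell cannot be told apart.

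**Figure D1:**
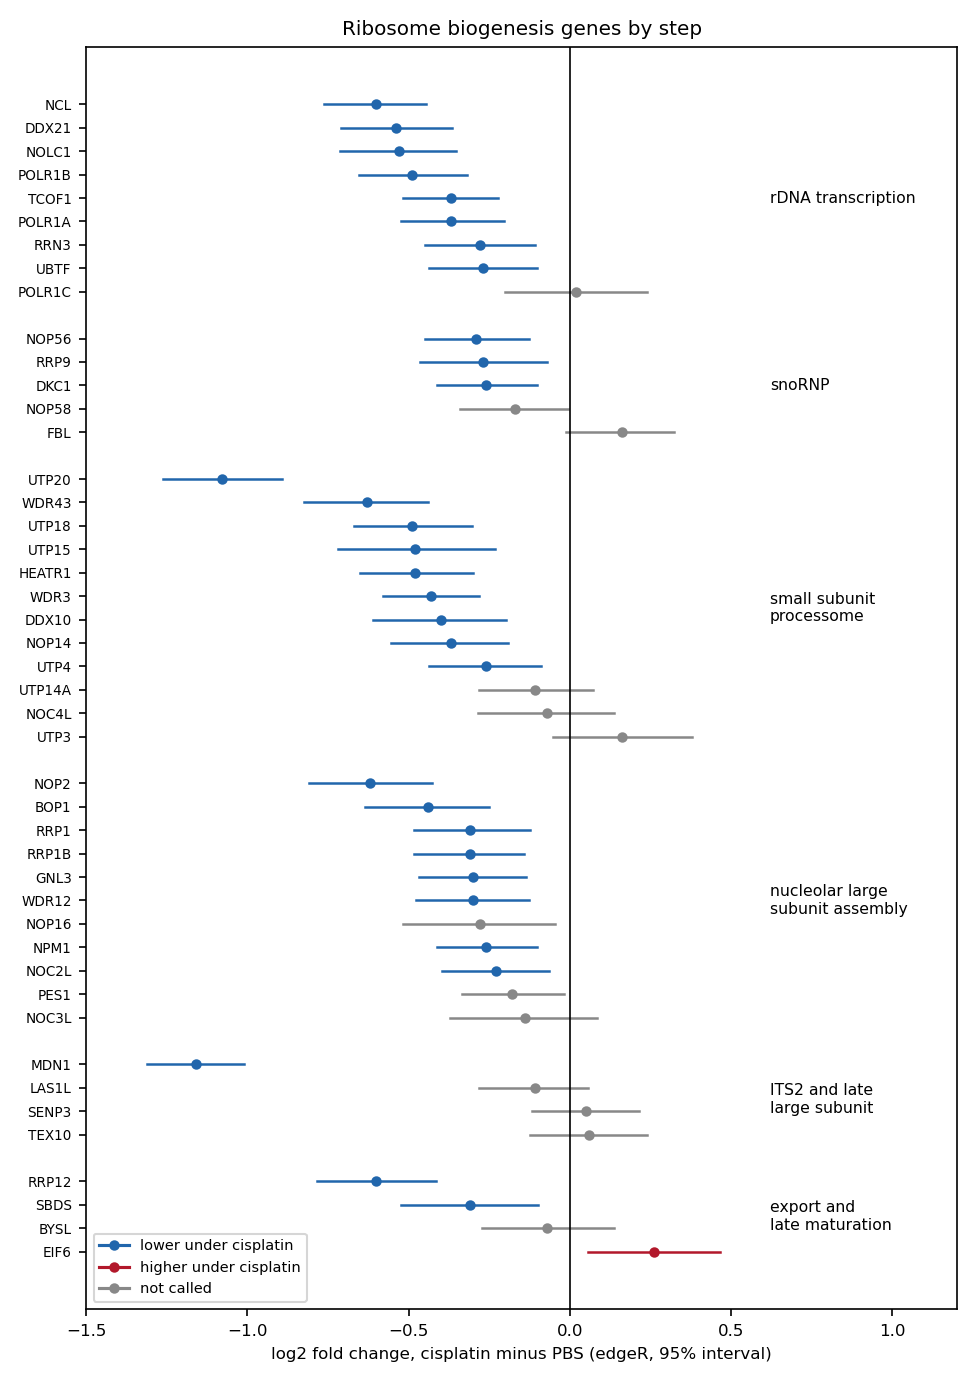
Log2 fold change (cisplatin minus PBS, x axis) of each of the 45 genes (rows, grouped by step), with points for the edgeR estimate and lines for its 95% interval. Blue marks the 31 genes that fell, red the 1 that rose and grey the 13 not called; MDN1 and UTP20 lie farthest to the left, at -1.16 and -1.08.

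Levels can be compared between genes per transcript length, as the authors' deposited TPM (transcript abundance scaled to a fixed total). Under PBS the 45 genes ran from 8.67 ± 1.15 TPM for UTP20 to 1710 ± 103 TPM for NPM1 (SD, n = 3), with 11 genes at 100 TPM or more and 10 under 20 TPM. NPM1, an abundant nucleolar chaperone, was followed by the methyltransferase FBL (760 ± 71.1 TPM) and NCL (518 ± 52.2 TPM). The lowest after UTP20 were UTP15 (9.73 ± 1.23), MDN1 (11.5 ± 1.02), and POLR1A (13.6 ± 1.35) and TEX10 (13.6 ± 0.682), in TPM under PBS. On this scale 34 of the 45 genes had all 3 cisplatin libraries below all 3 PBS libraries, as did 24.8% of all tested genes, and 1, EIF6, had them above, as did 15.6%. Neighbours in the order often did not differ beyond their spread, as with SENP3 (45.9 ± 4.43 TPM) and WDR12 (42.9 ± 0.783 TPM) under PBS. Summed by step, deposited TPM under cisplatin was 0.653 of that under PBS in rDNA transcription, 0.743 in the small subunit processome and 0.766 in nucleolar large subunit assembly. The ratio was 0.952 in snoRNP proteins, 0.982 in ITS2 processing and late nuclear maturation and 0.992 in export and late maturation. Abundant genes weigh most in such sums. Under PBS, NCL held 518 of 962 TPM in rDNA transcription, FBL 760 of 1320 in its step and NPM1 1710 of 2380. Under cisplatin NCL held 318 of 628. The ratios also depended on the unit. Summed as CPM they were 0.708 in rDNA transcription, 0.751 in the processome and 0.823 in nucleolar large subunit assembly. They were 0.935 in snoRNP proteins, 0.734 in the ITS2 step and 0.951 in export and late maturation. The ratio of the ITS2 step rests on MDN1, with 157 CPM under PBS and 70.1 under cisplatin on average. The other genes of that step changed little: LAS1L had 56.5 and 52.2 CPM, TEX10 36.7 and 38, and SENP3 76 and 78.7.

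**Figure D2:**
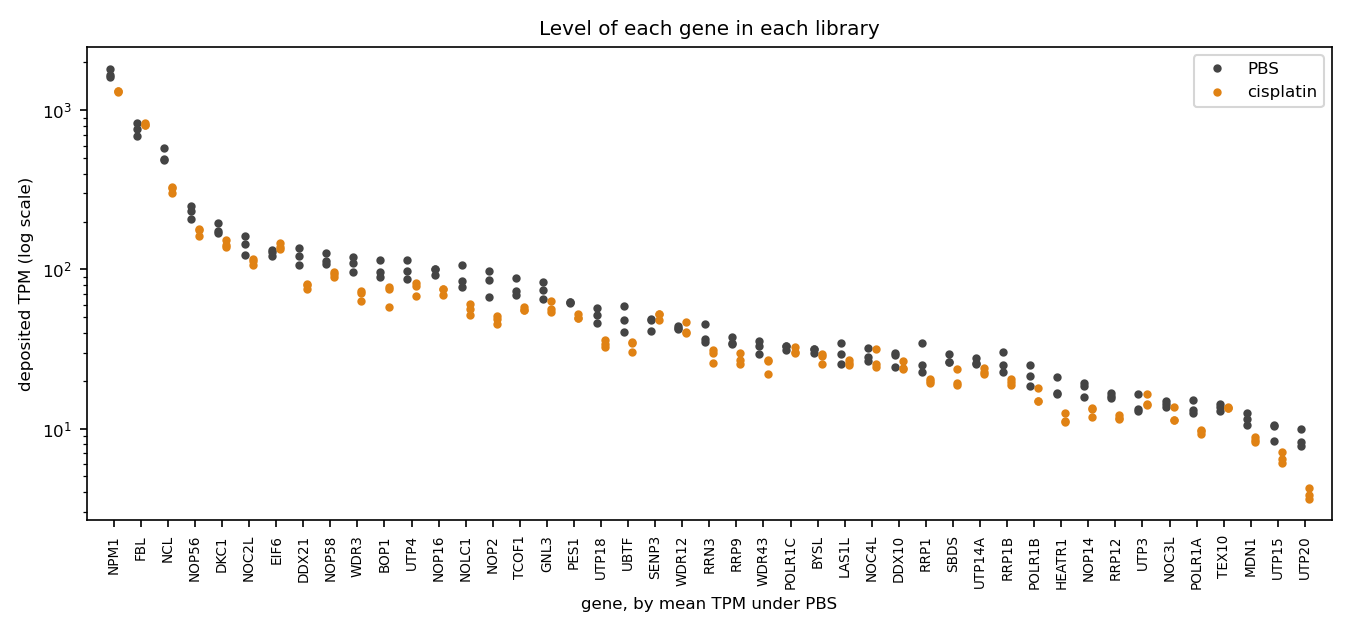
Deposited TPM (y axis, log scale) of each of the 45 genes in each library, ordered by mean TPM under PBS; each point is 1 library, dark for PBS and orange for cisplatin. The orange points lie below the dark points in 34 of the 45 genes (24.8% of all tested genes have this arrangement) and above them for EIF6 (15.6%).

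Of the 9 genes of rDNA transcription, 8 fell (88.9%, beside 19.3% of all tested genes) and POLR1C did not pass. Their median log2 fold change was -0.37. POLR1A, the largest subunit of RNA polymerase I, had 137, 128 and 145 CPM under PBS and 107, 104 and 107 CPM under cisplatin. Every cisplatin library was below every PBS library (log2 fold change -0.37 ± 0.07 (SE), edgeR adjusted p = 0.00224). POLR1B, the second-largest subunit, had 68.1, 67.4 and 72 CPM under PBS and 51.3, 49.6 and 47.3 CPM under cisplatin. It was lower in all 3 cisplatin libraries (log2 fold change -0.49 ± 0.08 (SE), edgeR adjusted p = 5.3e-04). POLR1C, a subunit shared with RNA polymerase III, had 33.2, 30.1 and 26.2 CPM under PBS and 31.1, 29.1 and 29.9 CPM under cisplatin. Its groups overlapped, and its fold change had a 95% interval of 0.87 to 1.18 (edgeR adjusted p = 0.915).

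The initiation factors and the cofactors of rDNA transcription were lower as well. UBTF, which binds and bends rDNA promoters, had 132, 124 and 138 CPM under PBS and 108, 101 and 116 CPM under cisplatin (log2 fold change -0.27 ± 0.08 (SE), edgeR adjusted p = 0.0166). RRN3, which links the polymerase to the promoter complex, had 103, 113 and 112 CPM under PBS and 93.7, 93.8 and 82.9 CPM under cisplatin (log2 fold change -0.28 ± 0.08 (SE), edgeR adjusted p = 0.015). Neither gene's groups overlapped. TCOF1, the treacle protein that tethers transcription and pre-rRNA modification, had 296, 293 and 311 CPM under PBS and 224, 237 and 236 CPM under cisplatin (log2 fold change -0.37 ± 0.07 (SE), edgeR adjusted p = 0.00137), again without overlap. The cofactors NCL, DDX21 and NOLC1 had log2 fold changes of -0.60, -0.54 and -0.53. NCL, or nucleolin (chromosome 2, 231453531 to 231483641 in GRCh38), had 1030, 1060 and 1060 CPM under PBS and 673, 660 and 740 CPM under cisplatin. It fell by 34.3%, and the groups lay far apart (log2 fold change -0.60 ± 0.07 (SE), edgeR adjusted p = 9.3e-05). The call of UBTF was lost without cisplatin replicate 1 (edgeR adjusted p = 0.0652) or 2 (0.0938), and that of RRN3 without cisplatin replicate 3 (0.0788). With a correction for transcript length, POLR1A (0.09, edgeR adjusted p = 0.382), UBTF (-0.17, 0.0894) and RRN3 (-0.18, 0.0594) were not called. Over the 20 alternatives the adjusted p ran from 2.3e-04 to 0.382 for POLR1A, 0.0112 to 0.498 for UBTF and 0.013 to 0.453 for RRN3, and on log2(TPM + 1) the limma calls of POLR1B (-0.42, 0.0721) and RRN3 (-0.41, 0.0568) were lost. RRN3 has pseudogene copies that can share its reads, so its value is less certain.

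Of 11 other polymerase I and initiation genes, from a wider list, 3 fell (27.3%, beside 19.3% of all tested genes), 1 rose (beside 18.9%) and 7 were not called, with a median of 0.02. POLR1G, a polymerase I subunit, fell by 0.77 ± 0.12 on the log2 scale (edgeR adjusted p = 4.5e-04), from 16 to 9.33 CPM on average. The promoter factor subunits TAF1A and TAF1B fell by 0.50 and 0.43 (edgeR adjusted p = 0.0267 and 0.0304). TAF1A rests on 44 to 106 counts a library. TAF1B did not fall in deposited TPM, with 12.5 ± 1.76 under PBS and 14.6 ± 7.33 under cisplatin and overlapping groups. TAF1C, TAF1D and TBP of the same factor were not called. POLR1D, another subunit shared with RNA polymerase III, rose by 0.32 ± 0.07 (edgeR adjusted p = 0.0035), from 89.7 to 112 CPM. Over the 8 polymerase I subunits tested, grouped after their values were seen, POLR1A, POLR1B and POLR1G fell, POLR1D rose, and POLR1C, POLR1E, POLR1F and POLR1H were not called.

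Among the 5 snoRNP proteins, 3 fell (60%, beside 19.3% of all tested genes) and 2 did not pass. NOP56, a core protein of box C/D particles that guide methylation, had 236, 216 and 223 CPM under PBS and 172, 194 and 186 CPM under cisplatin. The groups did not overlap (log2 fold change -0.29 ± 0.07 (SE), edgeR adjusted p = 0.00919). Its partner NOP58 had 141, 157 and 152 CPM under PBS and 125, 132 and 142 CPM under cisplatin, with overlapping groups (log2 fold change -0.17 ± 0.08 (SE), edgeR adjusted p = 0.0937). FBL, or fibrillarin, the methyltransferase of the same particles, had 432, 405 and 362 CPM under PBS and 445, 441 and 450 CPM under cisplatin. All 3 cisplatin libraries were higher, and the difference did not pass (log2 fold change 0.16 ± 0.08 (SE), edgeR adjusted p = 0.129). DKC1, or dyskerin, the pseudouridine synthase of box H/ACA particles, had 351, 344 and 340 CPM under PBS and 281, 309 and 276 CPM under cisplatin. It was lower in every cisplatin library (log2 fold change -0.26 ± 0.07 (SE), edgeR adjusted p = 0.0138). RRP9, a protein of the U3 particle, fell by 0.27 on the log2 scale (edgeR adjusted p = 0.0329).

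Of 10 other snoRNP proteins, 3 rose, 1 fell and 6 were not called, beside 18.9% higher and 19.3% lower of all tested genes. SNU13 of the box C/D core rose by 0.34, NOP10 of the H/ACA core by 0.27 and the assembly cofactor PIH1D1 by 0.28 (edgeR adjusted p = 0.00604, 0.0408 and 0.0219), while the H/ACA assembly factor NAF1 fell by 0.53 (0.00519). After the length correction NOP58 was called lower (-0.26, edgeR adjusted p = 0.0158), and FBL stood at -0.05 (0.495). Leaving out single libraries ended some edgeR calls, that of NOP56 without cisplatin replicate 1 (adjusted p = 0.0664), DKC1 without cisplatin replicate 1 (0.0759) or 3 (0.064), and RRP9 without PBS replicate 1 (0.0793) or 2 (0.07) or cisplatin replicate 1 (0.152) or 3 (0.0805).

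In the small subunit processome 9 of 12 genes fell (75%, beside 19.3% of all tested genes) and 3 were not called. The median log2 fold change was -0.42. UTP20, a very large scaffold protein (chromosome 12, 101280109 to 101386616 in GRCh38), had 67.4, 65.8 and 72.1 CPM under PBS and 34.3, 29.9 and 33.2 CPM under cisplatin. Every cisplatin library held less than every PBS library, and the fall was 52.6% (log2 fold change -1.08 ± 0.09 (SE), edgeR adjusted p = 7.4e-06). HEATR1, a scaffold of the first complex to bind the precursor (UTP-A), had 103, 111 and 114 CPM under PBS and 85.4, 76.8 and 73.8 CPM under cisplatin (log2 fold change -0.48 ± 0.08 (SE), edgeR adjusted p = 7.9e-04). UTP4 of the same complex had 170, 153 and 166 CPM under PBS and 144, 140 and 124 CPM under cisplatin (log2 fold change -0.26 ± 0.08 (SE), edgeR adjusted p = 0.0211). The groups of both genes stood apart. WDR43, also of UTP-A, fell by 0.63 on the log2 scale, and UTP15 by 0.48. Of the UTP-B complex, WDR3 fell by 0.43 and UTP18 by 0.49. NOP14 and the helicase DDX10 fell by 0.37 and 0.40. UTP3 (0.16), NOC4L (-0.07) and UTP14A (-0.11) were not called.

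UTP-A and UTP-B were lower in most of their parts when the wider list was added, a grouping made after the values were seen. Of the 6 UTP-A genes tested, 5 fell and WDR75 was not called. Of the 6 UTP-B genes, 4 fell, and UTP6 and TBL3 were not called. Over all 34 other small subunit factors, 14 fell (41.2%, beside 19.3% of all tested genes) and 1 rose (beside 18.9%), with a median of -0.17. Among them IMP4, which pairs the U3 RNA with the precursor, fell by 0.47, the GTPase BMS1 by 0.42 and the late factor LTV1 by 0.54 (edgeR adjusted p = 4.4e-04, 6.2e-04 and 7.8e-04), and RRP36 rose by 0.31 (0.00683). The call of UTP4 was lost without PBS replicate 1 (edgeR adjusted p = 0.0726) or cisplatin replicate 3 (0.104), and that of HEATR1 with the length correction (-0.16, 0.105). On log2(TPM + 1) limma did not call UTP4 (-0.38, adjusted p = 0.0551). HEATR1, WDR3 and NOP14 share 23.2%, 17.1% and 17.1% of their exonic sequence with another tested gene, on the opposite strand, and the use of strand in counting is not given in the sources used here, so these 3 are less certain.

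Promoters of these genes were searched because so many of them were lower together. The letters CACGTG, which read the same on both strands and form the E-box that MYC and MAX proteins are known to bind, were looked for from 250 bases before to 50 after the start site in RefSeq windows (GRCh38.p14). Windows were found for 39 of the 45 genes, and 14 of them (35.9%) held the letters. The share was 24.2% in the wider lists, 10.1% in the 11008 windows of tested genes and 7.26% in all 35116 windows. Of the 26 windows of genes that fell, 8 (30.8%) held them, and of the other 13, 6 (46.2%). In the processome 6 of 12 windows matched, and in rDNA transcription 0 of 7. Of the 16 matches, 9 began 4 to 36 bases after the start site. The sequences that follow show where the letters lie in genes that fell (UTP20, UTP4, UTP18 and MDN1), in a gene that was not called (TEX10) and, for NCL, a fallen gene without a match. Each is 100 bases on the gene's strand, 5′ to 3′, ending at the base before the start site, except MDN1, which runs from base -200 to -101. Start sites are those of RefSeq and can differ from the GENCODE gene ends given for positions. Capitals mark CACGTG.
UTP20, chr12:101280005-101280104, plus strand: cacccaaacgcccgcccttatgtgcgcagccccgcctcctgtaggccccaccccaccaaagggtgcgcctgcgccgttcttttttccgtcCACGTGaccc
UTP4, chr16:69132549-69132648, plus strand: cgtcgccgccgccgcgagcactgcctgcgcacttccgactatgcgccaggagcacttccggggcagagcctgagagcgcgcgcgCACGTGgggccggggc
UTP18, chr17:51260446-51260545, plus strand: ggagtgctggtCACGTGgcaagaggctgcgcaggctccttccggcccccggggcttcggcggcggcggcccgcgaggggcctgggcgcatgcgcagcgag
TEX10, chr9:100352943-100353042, minus strand: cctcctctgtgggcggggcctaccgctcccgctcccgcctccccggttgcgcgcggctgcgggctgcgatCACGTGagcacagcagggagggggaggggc
MDN1, chr6:89819895-89819994, minus strand: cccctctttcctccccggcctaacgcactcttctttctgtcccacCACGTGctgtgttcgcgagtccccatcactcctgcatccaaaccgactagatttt
NCL, chr2:231464485-231464584, minus strand: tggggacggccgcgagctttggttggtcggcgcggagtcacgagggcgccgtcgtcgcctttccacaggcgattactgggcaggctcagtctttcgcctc
The match shown began 10 bases before the start in UTP20, 16 in UTP4, 89 in UTP18, 30 in TEX10 and 155 in MDN1. UTP18 and MDN1 each held another match outside the stretch shown, at base 5 and base 28 after the start. A match describes these letters only and is not evidence of binding.

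Of the 11 genes of nucleolar large subunit assembly, 8 fell (72.7%, beside 19.3% of all tested genes) and 3 did not pass. All 11 estimates were below 0. NOP2, a methyltransferase of the large subunit rRNA, had 125, 100 and 117 CPM under PBS and 71.2, 76.2 and 75.1 CPM under cisplatin (log2 fold change -0.62 ± 0.09 (SE), edgeR adjusted p = 2.7e-04). Its groups did not overlap. The PeBoW complex, needed for maturation of the large subunit rRNA, is made of PES1, BOP1 and WDR12. BOP1 had 167, 175 and 173 CPM under PBS and 129, 109 and 140 CPM under cisplatin (log2 fold change -0.44 ± 0.09 (SE), edgeR adjusted p = 0.00228). WDR12 had 77.6, 84.6 and 89.2 CPM under PBS and 71.8, 67.9 and 64.8 CPM under cisplatin (log2 fold change -0.30 ± 0.08 (SE), edgeR adjusted p = 0.0114). PES1 had 101, 99.4 and 91.6 CPM under PBS and 84.6, 86.6 and 87.4 CPM under cisplatin, lower in every cisplatin library but not called (log2 fold change -0.18 ± 0.07 (SE), edgeR adjusted p = 0.0754). The groups of BOP1 and of WDR12 did not overlap in CPM, while the deposited TPM of WDR12 was 42.9 ± 0.783 under PBS and 42.2 ± 3.86 under cisplatin (SD, n = 3; limma on log2(TPM + 1) -0.03, adjusted p = 0.875). PES1 was called lower with the length correction (-0.22, edgeR adjusted p = 0.0248) and without PBS replicate 3 (-0.22, 0.0397).

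NPM1, the most abundant of the 45 mRNAs, had 1530, 1620 and 1510 CPM under PBS and 1270, 1290 and 1340 CPM under cisplatin. Its groups did not overlap, and it fell by 16.3% (log2 fold change -0.26 ± 0.07 (SE), edgeR adjusted p = 0.0134). GNL3, or nucleostemin, a GTPase of dividing and stem cells, had 90, 96.2 and 97.2 CPM under PBS and 79.8, 71.8 and 78.2 CPM under cisplatin (log2 fold change -0.30 ± 0.08 (SE), edgeR adjusted p = 0.00805), with the groups apart. The paralogues RRP1 and RRP1B each fell by 0.31, and NOC2L by 0.23. NOP16 (-0.28, edgeR adjusted p = 0.0574) and NOC3L (-0.14, 0.318) were not called, and NOP16 was called without PBS replicate 3 (-0.39, 0.0133). The edgeR call of NPM1 was lost without cisplatin replicate 1 (adjusted p = 0.0699) or 2 (0.0768), those of GNL3 (0.0528) and RRP1 (0.0627) without cisplatin replicate 2, and that of WDR12 without cisplatin replicate 3 (0.0554). NOC2L was not called without PBS replicate 1 (0.106) or 3 (0.0606) or cisplatin replicate 1 (0.102), 2 (0.135) or 3 (0.0502). NOP16 shares 12% of its exonic bases with a gene on the opposite strand and is less certain. NPM1 has many processed pseudogenes, and 54.4% of the exonic bases of NOP2 lie in another tested gene on the same strand, so the reads of both may be divided. On log2(TPM + 1) limma did not call RRP1 (-0.43, adjusted p = 0.0784), RRP1B (-0.38, 0.0665) or GNL3 (-0.36, 0.0528).

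The wider list of 41 other large subunit factors held 20 that fell and 21 that were not called, with a median of -0.22. The share that fell was 48.8%, beside 19.3% of all tested genes. RRS1, which brings the ribonucleoprotein of the small 5S RNA into the particle, fell by 0.96, from 23.0 ± 4.49 to 10.8 ± 1.6 TPM. MAK16 fell by 0.78 and EBNA1BP2 by 0.52, from 321 ± 23 to 209 ± 7.06 TPM (SD, n = 3; edgeR adjusted p = 1.9e-04 for RRS1, 1.4e-04 for MAK16 and 1.7e-04 for EBNA1BP2). Of 15 genes of the nuclear exosome and rRNA end trimming, 4 fell (26.7%, beside 19.3% of all tested genes) and 11 were not called; those that fell included the helicase MTREX (-0.35), EXOSC6 (-0.39) and EXOSC5 (-0.37). Over all 111 genes of the wider lists, 42 fell (37.8%, beside 19.3% of all tested genes) and 5 rose (beside 18.9%).

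**Figure D3:**
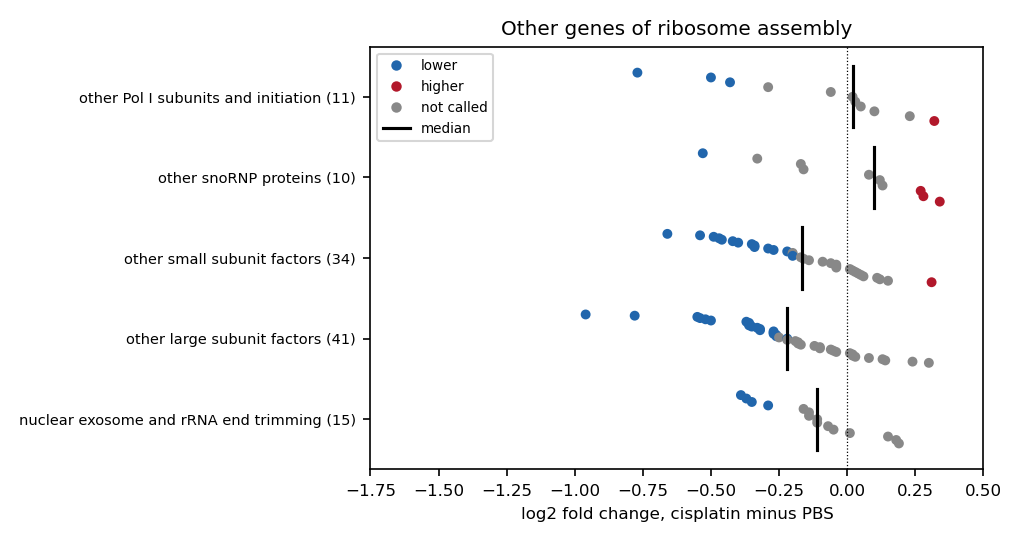
Log2 fold change (cisplatin minus PBS, x axis) of 111 other ribosome assembly genes in 5 lists (rows, number of genes in brackets); each point is a gene, blue if it fell, red if it rose and grey if not called, and the bar is the list's median. The medians run from -0.22 in large subunit factors to 0.10 in snoRNP proteins.

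In the step of ITS2 processing and late nuclear large subunit maturation, 1 of 4 genes fell (25%) and 3 were not called. Of all tested genes, 19.3% were called lower, close to that share. MDN1, a giant ATPase that pulls assembly factors off the large subunit (chromosome 6, 89642499 to 89819723 in GRCh38), had 152, 161 and 157 CPM under PBS and 70.3, 70.2 and 69.9 CPM under cisplatin. It fell by 55.3%, and its groups lay far apart (log2 fold change -1.16 ± 0.07 (SE), edgeR adjusted p = 1.1e-06). LAS1L, a subunit of the nuclease that cuts the spacer ITS2, had 58, 53.5 and 57.9 CPM under PBS and 54.3, 50 and 52.5 CPM under cisplatin. Its groups overlapped, with a fold change between 0.822 and 1.04 at 95% confidence. TEX10 and the SUMO protease SENP3, which act with PELP1 on the same particle, had fold changes with 95% intervals of 0.918 to 1.18 and 0.921 to 1.16. Of the 6 genes of this machinery tested, grouped after their values were seen, PELP1 fell by 0.22 (edgeR adjusted p = 0.0348) and the other 5 were not called. SENP3 shares 41.2% of its exonic bases with a read-through transcript, so its value is less certain.

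The fall of MDN1 depended on the unit. Its deposited TPM was 12.5, 10.5 and 11.5 under PBS and 8.46, 8.24 and 8.85 under cisplatin, still without overlap. On log2(TPM + 1) limma gave -0.39, and the call was lost (adjusted p = 0.0711; 9.9e-40 to 0.0711 over the 20 alternatives). The authors' transcript length of MDN1, an average over its isoforms weighted by their estimated abundance, was 13042, 16123 and 16777 bases under PBS and 8992, 9091 and 8291 bases under cisplatin. The groups did not overlap, and the log2 ratio of the means was -0.80. UTP20, by contrast, had nearly equal lengths (8967 and 8899 bases on average) and fell on both scales (8.67 ± 1.15 and 3.89 ± 0.308 TPM). The deposited length also moved by at least 0.2 on the log2 scale in WDR12 (-0.31), WDR43 (-0.30), DDX10 (-0.29) and RRP12 (-0.21), all towards shorter transcripts under cisplatin. Of these 5 genes, RRP12 was still called on log2(TPM + 1), where limma gave -0.03 for WDR12 (adjusted p = 0.875), -0.36 for WDR43 (0.0715) and -0.15 for DDX10 (0.374), beside -0.30, -0.63 and -0.40 on counts.

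**Figure D4:**
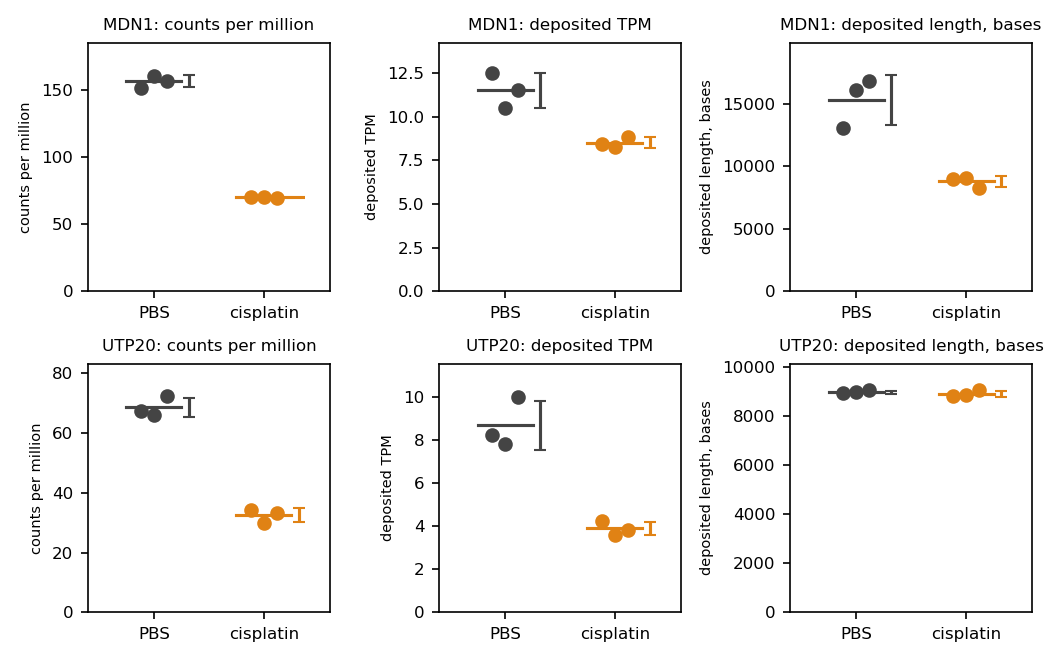
CPM, deposited TPM and deposited transcript length in bases (y axes, from 0) of MDN1 (top) and UTP20 (bottom) by group; points are libraries, horizontal bars the mean and the error bars 1 SD (n = 3). MDN1 lengths are 13042 to 16777 bases under PBS and 8291 to 9091 under cisplatin, while UTP20 lengths stay between 8815 and 9031.

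Of the 4 genes of export and late maturation, 2 fell (50%, beside 19.3% of all tested genes). Another 1 rose (beside 18.9%), the only rise among the 45, and 1 was not called. EIF6, which keeps the unfinished large subunit from joining the small subunit, had 89, 85.2 and 69.1 CPM under PBS and 91.8, 101 and 97 CPM under cisplatin. Every cisplatin library was above every PBS library (log2 fold change 0.26 ± 0.10 (SE), edgeR adjusted p = 0.0498). SBDS, which helps to release EIF6 from the particle in the cytoplasm and is mutated in Shwachman-Diamond syndrome, had 32, 32.3 and 30.7 CPM under PBS and 28.6, 23.3 and 24.8 CPM under cisplatin. It was lower in every cisplatin library (log2 fold change -0.31 ± 0.10 (SE), edgeR adjusted p = 0.0246). RRP12, an export factor of both subunits, had 54.9, 48.3 and 53.1 CPM under PBS and 33.4, 35.7 and 33.9 CPM under cisplatin. Its groups did not overlap (log2 fold change -0.60 ± 0.09 (SE), edgeR adjusted p = 2.7e-04), and BYSL, of late small subunit maturation, was not called (-0.07, 0.597). The call of EIF6 was lost under 11 of 20 alternatives (adjusted p from 0.0216 to 0.559). They include leaving out PBS replicate 3 (0.15, edgeR adjusted p = 0.171) or cisplatin replicate 1 (0.0743), 2 (0.13) or 3 (0.104) and the length correction (0.07, 0.506). SBDS was not called without PBS replicate 1 (0.0594) or 2 (0.0557) or cisplatin replicate 2 (0.116) or 3 (0.0844), nor by limma on log2(TPM + 1) (-0.39, 0.0546), and it is less certain, with 12% of its exonic bases shared with a gene on the opposite strand and a near-identical pseudogene.

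Transcript length moved with these changes. Across the 45 genes the log2 fold change correlated with log2 transcript length (Pearson's r = -0.63, Spearman's rho = -0.57), and across all 15063 tested genes the values were -0.27 and -0.35. These are correlations across genes that share the same 6 libraries, given as a description. The median length was 2410 bases in the 45 genes and 2360 in all tested genes. Among genes of 2000 to 3000 bases, 10 of 15 of the 45 fell, beside 16.9% of all tested genes of that length. Among those of 1500 to 2000 bases, 5 of 8 fell, beside 10%, and of 3000 to 4000 bases 6 of 8, beside 24.2%. All 4 genes of 4000 to 6000 bases and all 4 longer ones fell, beside 34.5% and 53.8%. In the shortest bands, 2 of 4 genes of 1000 to 1500 bases fell, beside 6.65%, and the 2 under 1000 bases, FBL and NOP16, were not called, beside 7.88% of all genes of that length lower. With a per-library correction for length, 29 of the 45 were called lower, EIF6 was no longer called higher, and 26 of the 31 remained among them, beside 16.1% of all genes lower and 17.6% higher. POLR1A, UBTF, RRN3, HEATR1 and RRP1B dropped out, while NOP58, NOP16 and PES1 were added. UTP20 and MDN1 then stood at -0.69 and -0.70 (edgeR adjusted p = 7.8e-05 and 1.2e-05). The correction used 1 length per gene, averaged over the 6 libraries, so it did not take up the shorter MDN1 length under cisplatin.

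**Figure D5:**
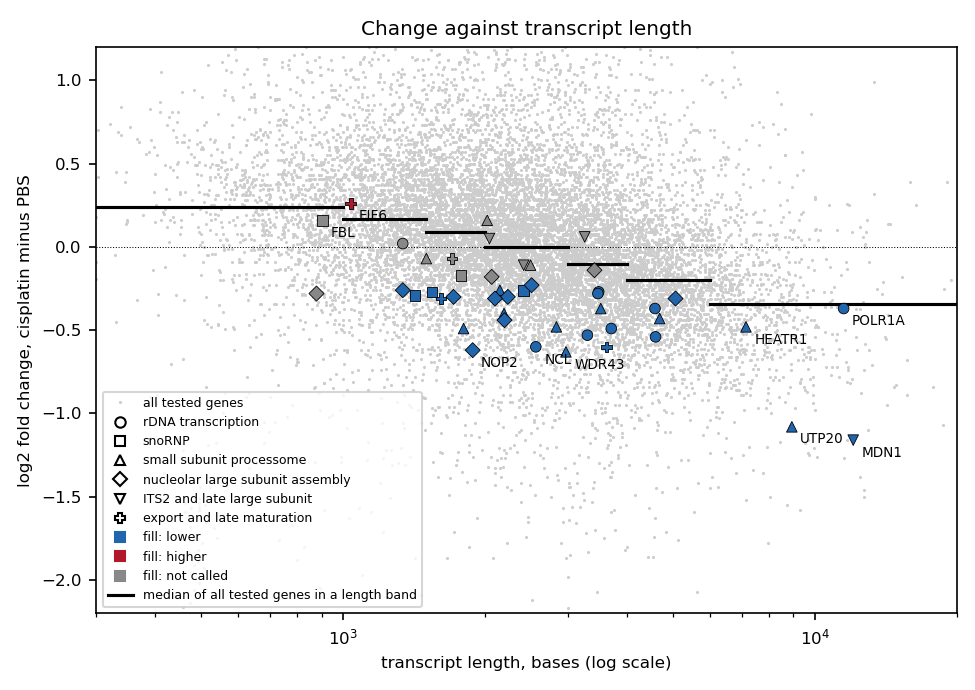
Log2 fold change (cisplatin minus PBS, y axis) against deposited transcript length in bases (x axis, log scale); grey dots are tested genes within the axis limits, bars the median of all tested genes in 7 length bands, and symbols the 45 genes by step, filled blue if they fell, red if they rose and grey if not called. The bars go from 0.24 in the shortest band to -0.34 in the longest, and MDN1 and UTP20 lie below them.

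NOLC1, NCL, DDX21, UTP18, UTP20, WDR3, NOP2 and RRP12 were called lower in all 20 alternatives, with log2 fold changes from -0.66 to -0.45 for NOLC1, -0.70 to -0.56 for NCL and -0.77 to -0.55 for NOP2. In all 6 fits that left out a library, 19 genes were called lower each time. In these fits taken singly, 13.1% to 17% of all tested genes were called lower. How many of all genes kept their call throughout, here or in all 20 alternatives, was not computed. Against a minimum change of 1.2-fold, 12 of the 45 passed, namely MDN1, UTP20, WDR43, NOP2, NCL, RRP12, DDX21, NOLC1, POLR1B, UTP18, HEATR1 and WDR3, beside 8.17% of all tested genes lower and 9.02% higher.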

How the data were processed

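RNA from 3 PBS and 3 cisplatin samples of NCI-H520 was sequenced. Reads were aligned with STAR 2.7.9 to GRCh38 (hg38), per the submitters' processing notes. The file headers are those of RSEM gene tables. The quantifier's version, annotation and strand use: not given in the sources used here. The authors deposited, per the file headers, expected counts (estimated reads per gene, not normalized), TPM, FPKM (not used) and an average transcript length per gene. Symbols were matched for 61399 of 61552 genes, and positions come from GENCODE 29 for 58352. Every library had its own table, and depth was 9121180 to 16724285 expected counts.

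Expected counts were rounded, filtered (edgeR filterByExpr, minimum count 10, minimum total 15), scaled by TMM and tested with edgeR 4.0.16 (quasi-likelihood, group only) under R 4.3.3, with Benjamini-Hochberg adjustment over 15063 genes and a threshold of 0.05. SE is the absolute log2 fold change over the root of the F statistic. The code was tested on simulated data. Alternatives used limma 3.58.1 and DESeq2 1.42.0, other scalings and filters, TPM with pseudocounts of 1 and 0.1, the replicate block, each library left out, a minimum change of 1.2-fold, and a length correction. For the length correction, each gene's deviation in log2 CPM from its mean over the libraries was fitted by loess (span 0.5) on transcript length. The fit in each library served as an offset, with 1 length per gene, averaged over the libraries. Fold changes on log2(TPM + 1) understate changes of low genes. Members and lists were chosen with earlier results of these data known. Values in every library are given for the listed key members of each step and for the called member with the largest change in each direction; of each wider list, up to 3 called genes per direction with the smallest adjusted p are named. Promoters are RefSeq windows (GRCh38.p14).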

Additional observations from a re-analysis of the deposited data

How the results depend on the processing

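Of the 45 genes, 31 were called lower in the reported analysis and 22 to 31 under the other settings, except 12 against a minimum change of 1.2-fold; without a replicate the number was 24 to 32. EIF6 was the 1 gene called higher, and 0 were under DESeq2 size factors (RLE), DESeq2, both TPM pseudocounts, both length corrections and the 1.2-fold minimum (0 to 1 without a replicate). The median log2 fold change of -0.30 became -0.28 with upper quartile scaling, -0.29 with total counts or with at least 50 counts in 3 libraries, -0.38 and -0.39 on TPM with pseudocounts of 1 and 0.1 (where the median of all genes shifted to -0.07 and -0.09), and -0.27 with either length correction (-0.33 to -0.29 without a replicate). POLR1A reversed to 0.09 with the length correction, alone or with the replicate block; the cause was not tested. Over all genes, 2851 were higher and 2901 lower. On TPM with pseudocounts of 1 and 0.1 the numbers were 1208 and 1186 higher and 1653 and 1629 lower, and against 1.2-fold 1359 and 1230 (2137 to 2718 higher and 2068 to 2595 lower without a replicate). With the replicate block, 31 members were lower and 1 higher, and no member's call changed. Same-numbered samples correlated at 0.07, 0.12 and -0.08 in their deviations from the group means, and PBS 3 correlated best with cisplatin 1 (0.13), so the numbers were not treated as pairs. Among 900 results of single members under alternatives, 794 kept their side of the threshold without a reversed call, 89 lost the call, 15 gained one and 2, of POLR1A, reversed. A further 11 changes of sign were in 4 genes not called, POLR1C (-0.13 to -0.01), FBL (-0.05), TEX10 (-0.02 to -0.01) and SENP3 (-0.01). Genes not called had fold intervals between 0.699 and 1.3.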

Other observations

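Reads assigned to 5.8S ribosomal RNA, a product of the same precursor, were few in these libraries. The 3 annotated copies together had 5.63, 3.22 and 3.01 CPM (scaled to the library total) under PBS and 7.18, 5.67 and 3.03 under cisplatin. The groups overlapped, and the values rest on 42.4 to 71.2 counts a library, so no level of ribosomal RNA is read from them.

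The cell cycle inhibitor CDKN1A, given once as context, rose from 6.86 ± 1.36 to 15.4 ± 1.55 CPM (SD, n = 3; log2 fold change 1.18, edgeR adjusted p = 1.8e-04). All 3 cisplatin libraries were above all 3 PBS libraries.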
